A study of Mus musculus with 6 samples.

Results

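Laminins, nidogens and perlecan form the scaffold of basement membranes together with type IV collagen, and 9 of their genes were examined: Lama2, Lama4, Lama5, Lamb1, Lamb2, Lamc1, Nid1, Nid2 and Hspg2. They were picked by symbol from the deposited table, where all 9 had a row among 54532 genes. The mouse RNA came from samples whose labels name lung. The labels put 3 libraries in an aged group, from mice of 18 months, and 3 in a young group, from mice of 3 months. Strain, sex and whether each library came from its own mouse are not stated, so the tests reflect variation among these 6 libraries, part or all of which may be technical. The question asked of each gene is whether its transcript level differed between the ages.

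A laminin is a cross-shaped trimer of an alpha, a beta and a gamma chain. The trimers polymerise at cell surfaces, where the alpha chain's end binds integrins and dystroglycan. Nidogens bridge the gamma 1 chain to type IV collagen, and perlecan, a very large heparan sulfate proteoglycan, ties the layers together and holds growth factors. In adult lung the alpha 5 chain is the prevalent alpha chain of alveolar, airway and vessel basement membranes.

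The levels are FPKM, fragments scaled to gene length and library size, from paired-end sequencing. Whole fragments recovered from them, called reads here, totalled 16649061 to 16906850 per aged library and 17266815 to 17456715 per young library. At least 1 read fell on 26703 to 26925 genes in aged libraries and on 24074 to 24363 genes in young libraries. Markers of lung epithelium were mixed. Of 6 alveolar type 2 markers, the surfactant genes Sftpc, Sftpb and Sftpa1 reached at most 0.112, 0.177 and 0.0619 FPKM, while Napsa stood at 17.5 to 21.8 FPKM. Of 6 alveolar type 1 markers, Ager reached at most 0.679 FPKM, while Aqp5, Pdpn and Cav1, which other cells also express, were at 10 FPKM or more in every library. All 8 endothelial markers stayed under 1 FPKM in every library. Fibroblast and cycling-cell transcripts were abundant, with 5 of 8 and 4 of 4 markers at 10 FPKM or more in every library. The groups are called by their labels here, and whether the RNA came from whole lung tissue was not tested. A list of 8 kidney tubule markers summed to 1.21 to 1.81 FPKM in aged libraries, against 133 FPKM in young replicate 1, 0.811 FPKM in young replicate 2 and 26.6 FPKM in young replicate 3. Fold changes of the members and the balances are given with and without young replicates 1 and 3; leaving them out leaves a single young library that is assumed to vary like the aged ones.

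Promoter stretches were available for 6 of the 9 genes in RefSeq (build GRCm38.p6, which is mm10). Of these, 4 are shown, because they set abundant members (Lama5, Lamb1, Hspg2) beside a sparse one (Nid1). Each runs 5′ to 3′ on the gene's strand and ends just before the first base of the gene in the deposited table. Capitals mark the GC box GGGCGG or its reverse complement CCGCCC, the motif bound by Sp1-type factors.
Lama5: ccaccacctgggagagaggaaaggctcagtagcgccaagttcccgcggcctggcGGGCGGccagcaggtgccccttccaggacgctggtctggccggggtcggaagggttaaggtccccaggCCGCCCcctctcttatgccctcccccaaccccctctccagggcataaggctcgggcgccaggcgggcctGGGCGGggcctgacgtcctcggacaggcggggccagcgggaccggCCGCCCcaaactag
Lamb1: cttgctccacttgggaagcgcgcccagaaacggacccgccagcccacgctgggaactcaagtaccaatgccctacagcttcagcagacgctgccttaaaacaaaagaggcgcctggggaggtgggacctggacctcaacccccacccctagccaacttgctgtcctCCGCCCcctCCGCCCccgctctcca
Hspg2: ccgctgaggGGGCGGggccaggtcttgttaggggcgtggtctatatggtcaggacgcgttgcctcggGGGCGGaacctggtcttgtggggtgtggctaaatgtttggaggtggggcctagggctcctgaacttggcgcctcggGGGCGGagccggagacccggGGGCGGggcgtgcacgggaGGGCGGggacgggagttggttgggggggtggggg
Nid1: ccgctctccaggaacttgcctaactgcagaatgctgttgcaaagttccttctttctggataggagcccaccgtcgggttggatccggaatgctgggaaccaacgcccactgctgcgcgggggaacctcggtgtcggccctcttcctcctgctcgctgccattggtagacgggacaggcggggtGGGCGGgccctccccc
The stretches lie at chr2:180225860-180226109 (minus strand), chr12:31265043-31265233 (plus), chr4:137468553-137468768 (plus) and chr13:13437352-13437550 (plus). They hold 4 GC boxes at Lama5, 2 at Lamb1, 5 at Hspg2 and 1 at Nid1. In windows of 250 bases before the RefSeq start, searched on both strands, at least 1 GC box occurred in 32.7% of 32851 mouse promoters, and at least 3 in 8.47%. The windows of Lama2, a sparse member, and Lamb2, an abundant one, held none and are not shown. The Lama2 window (chr10:27616943-27617192, minus) lies inside the gene of the deposited table, whose first base is at 27619758. The Lamb2 window (chr9:108479612-108479861, plus) runs past the first base of its gene, 108479736. They are thus not placed like the shown stretches, and whether GC boxes go with transcript level was not tested. The GC content of the windows was 47.2% for Lama2 and 43.6% for Lamb2, against 72.4% for Lama5 and a median of 52.4% over all promoters. The TATAAA motif was in none of the 6 windows, which says only that these letters are not there, and in 12.4% of all promoters. TGACTCA, the letters of an AP-1 site, occurred in none of the 6 and in 4.46% of all promoters.

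The members fell into an abundant and a sparse set. Lama5, Lamb1, Lamb2, Lamc1 and Hspg2 took 99.8% to 99.9% of the reads on all 9 genes in every library. The 9 genes together took 0.234% to 0.262% of all reads in aged libraries and 0.316% to 0.319% in young libraries. The 5 abundant members passed the filter of the test (0.5 FPKM in at least 3 libraries) in both groups, whereas Lama2, Lama4, Nid1 and Nid2 did not reach it. All 5 tested members were lower in aged libraries by limma at an adjusted p under 0.05, where 32.3% of the 15197 tested genes were called lower and 60.0% were called in either direction. With median centring 26.5% of genes were called lower and 32.8% higher, and 4 of the 5 members stayed called. Without that centring, the median log2 fold change of the 5 members was -0.28, against -0.03 over all tested genes. The groups did not overlap for any of the 5; 66.9% of tested genes had groups without overlap, 35.6% with aged libraries below and 31.3% with aged libraries above. The 8 fibroblast markers summed to 495 to 533 FPKM in aged and 681 to 709 FPKM in young libraries, mostly from Col1a1 and Col1a2. Of these markers, Col1a1, Col1a2, Col3a1 and Pdgfra were lower in aged libraries. Col1a1 stood at 153 to 184 FPKM in aged and 236 to 251 FPKM in young libraries. Col3a1 stood at 18.8 to 19.7 FPKM in aged and 60.1 to 63.7 FPKM in young libraries. Pdpn, also an alveolar type 1 marker, was higher in aged libraries. Dcn and Lum reached at most 0.109 and 0.0482 FPKM, and Tcf21 was at 0 in every library. The 8 smooth muscle and pericyte markers summed to 89.5 to 93.7 FPKM in aged and 66.8 to 69.1 FPKM in young libraries. Most of that sum came from Cspg4, higher in aged libraries, and Pdgfrb. Des was lower in aged libraries, and Acta2 reached at most 0.163 FPKM. The 6 macrophage markers summed to 34.4 to 34.9 FPKM in aged and 9.92 to 12.3 FPKM in young libraries, nearly all from Lyz2 and Cd68, with Ptprc at most 0.0953 FPKM. Whether such cells were present, and what part they had in the members' levels, was not tested. In RNA from a mix of cells, fewer cells that make a transcript and less transcript per cell cannot be told apart.

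**Figure D1:**
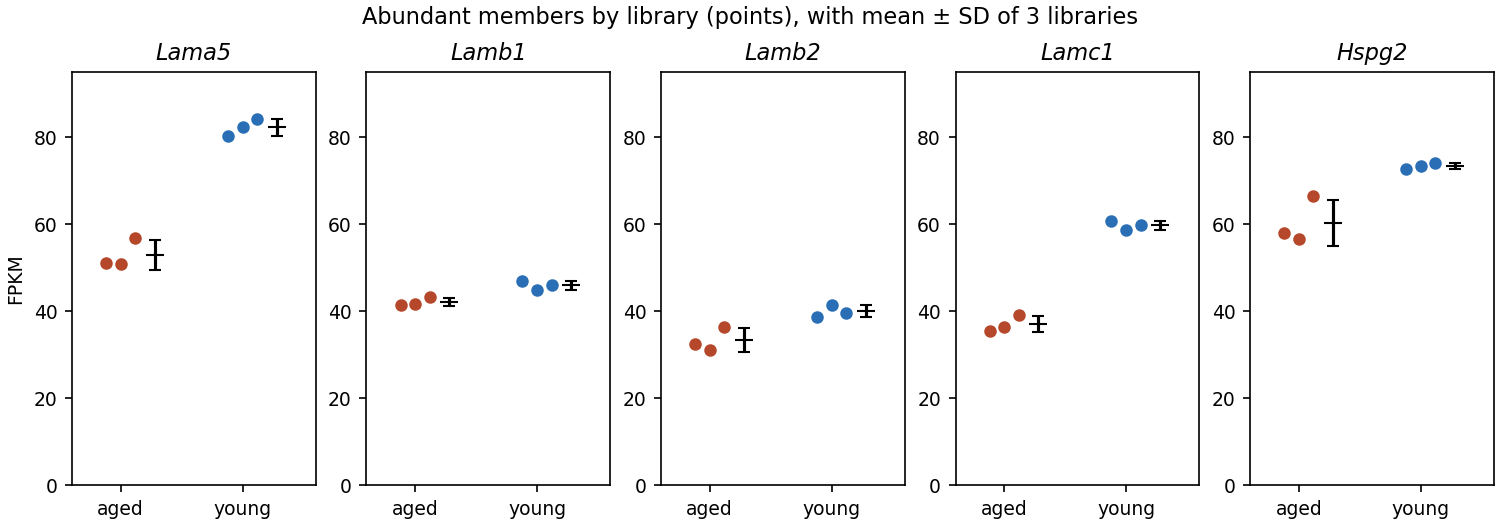
FPKM of the 5 abundant members (vertical axis, linear from 0) in 3 aged and 3 young libraries, with points for libraries and the mean ± SD beside them. Aged libraries lie below young ones in each panel, widely for Lama5 (53.0 against 82.3 FPKM) and narrowly for Lamb1 (42.1 against 46.0 FPKM).

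Lama5 encodes the alpha 5 chain (ENSMUSG00000015647, chromosome 2, 180176373 to 180225859, minus strand, 79 exons in its largest coding transcript). It had 51.2, 50.8 and 56.9 FPKM in aged libraries, against 80.3, 82.4 and 84.2 FPKM in young libraries. Every young library stood well above every aged one. The gene was 1.55-fold lower, at 53.0 ± 3.40 FPKM in aged and 82.3 ± 1.95 FPKM in young libraries (mean ± SD over 3 libraries per group, as in all such pairs). The log2 fold change was -0.63 ± 0.05 SE (limma adjusted p = 7.10e-05), and -0.63 with adjusted p = 0.00527 without young replicates 1 and 3. Of the 4903 genes called lower, 1163 fell further on this scale.

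Lama2, the alpha 2 chain of muscle and peripheral nerve, whose loss causes muscular dystrophy in mice, was sparse (ENSMUSG00000019899, chromosome 10, 26980036 to 27619758, minus strand). It had 38, 38 and 44 reads in aged libraries, against 21, 15 and 19 reads in young libraries. These reads correspond to 0.135, 0.137 and 0.157 FPKM in aged libraries and 0.0746, 0.0529 and 0.0674 FPKM in young libraries. The groups did not overlap. Aged libraries lay wholly above young ones for 32.1% of genes below the FPKM filter with at least 10 reads in all. The summed reads of 120 in aged and 55 in young libraries were in a ratio of 2.20 (exact 95% counting interval 1.59 to 3.09). Limma's voom on recovered reads, over genes with at least 10 reads in all, gave a log2 fold change of 1.11 ± 0.26 SE (adjusted p = 0.00180). In that fit 49.9% of genes were called, 25.1% of all as higher, and among genes below the FPKM filter 20.7% were called higher and 4.89% lower. Without young replicates 1 and 3 the ratio was 2.71 (1.58 to 4.98). A list of 8 skeletal and heart muscle markers summed to 9.91 to 14.8 FPKM in aged and 5.48 to 6.28 FPKM in young libraries. Most of that sum came from Tnnt2 (6.82 to 9.81 FPKM in aged, 4.27 to 4.72 FPKM in young libraries) and Acta1 (2.69 to 4.54 FPKM in aged, 1.02 to 1.40 FPKM in young libraries), while Myod1 and Myog reached at most 0.0317 and 0.0394 FPKM. A list of 6 Schwann cell and neural crest markers summed to 47.6 to 51.0 FPKM in aged and 23.9 to 27.1 FPKM in young libraries. S100b carried that sum, at 46.2 to 49.7 FPKM in aged and 22.2 to 25.7 FPKM in young libraries, and Sox10 reached at most 0.0193 FPKM. Whether such cells were present, and what part they had in the Lama2 level, was not tested.

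Lama4, the alpha 4 chain typical of blood vessel endothelium (ENSMUSG00000019846, chromosome 10, 38965515 to 39110188, plus strand), was close to the limit of detection. It had 7, 6 and 3 reads in aged libraries, against 2, 2 and 1 reads in young libraries. The groups did not overlap, as for the 32.1% of genes below the FPKM filter with at least 10 reads whose aged libraries lay wholly above. Aged replicate 3 and the upper young libraries were only 1 read apart. The ratio of summed reads was 3.23 with a counting interval of 1.13 to 11.3 (2.71, from 0.636 to 24.3, without young replicates 1 and 3), and voom gave adjusted p = 0.103, so no difference was called. Endothelial markers were as sparse, summing over 8 genes to 1.09 to 1.30 FPKM in aged and 0.471 to 0.698 FPKM in young libraries. Lama5 made up 99.7% of the summed FPKM of the 3 alpha chains in each aged library and 99.9% in each young library.

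**Figure D2:**
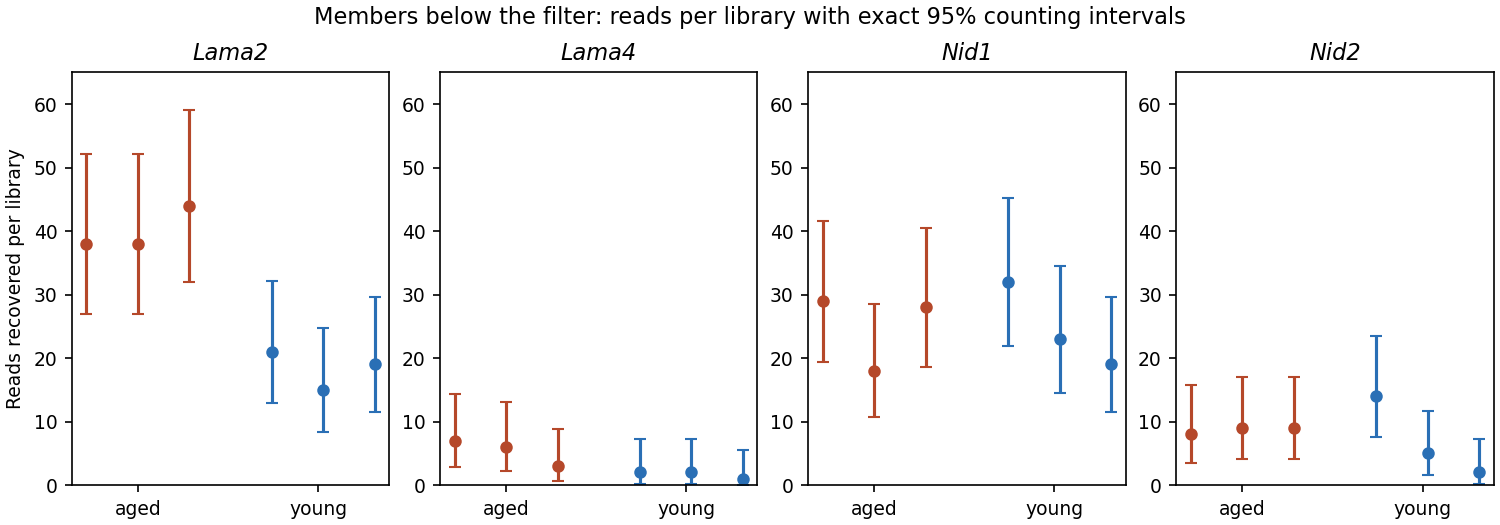
Reads recovered per library (vertical axis, linear from 0) for Lama2, Lama4, Nid1 and Nid2, with exact 95% counting intervals as bars, aged libraries on the left of each panel. Lama2 had 38 to 44 reads in aged and 15 to 21 in young libraries, while the nidogens overlap between groups.

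Both beta chain genes fell by smaller factors than Lama5. Lamb1 encodes the beta 1 chain, the most widespread beta chain (ENSMUSG00000002900, chromosome 12, 31265234 to 31329644, plus strand). It had 41.5, 41.6 and 43.2 FPKM in aged libraries, against 47.0, 44.9 and 46.1 FPKM in young libraries. The groups came close to each other without overlap. The log2 fold change was -0.12 ± 0.03 SE (limma adjusted p = 0.0147), a 1.09-fold lower mean. Of the 4903 genes called lower, 4850 fell further. The call was lost with median centring (-0.06, adjusted p = 0.165), in TPM (-0.10, adjusted p = 0.0733), without aged replicate 1 (adjusted p = 0.0523) or 2 (adjusted p = 0.0558), and without young replicates 1 and 3 (-0.09, adjusted p = 0.210).

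Lamb2 encodes the beta 2 chain, known from the kidney filter and the neuromuscular junction (ENSMUSG00000052911, chromosome 9, 108479736 to 108490530, plus strand). It had 32.5, 31.1 and 36.4 FPKM in aged libraries, against 38.8, 41.5 and 39.7 FPKM in young libraries. Aged replicate 3 was the closest to the young libraries, as it was the highest aged library for all 5 abundant members. The mean was 1.20-fold lower, with a log2 fold change of -0.26 ± 0.06 SE (limma adjusted p = 0.00924). Without young replicates 1 and 3 it was -0.31 with adjusted p = 0.0556.

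Lamc1 encodes the gamma 1 chain, which most laminins contain and to which nidogen binds (ENSMUSG00000026478, chromosome 1, 153218922 to 153332786, minus strand). It had 35.6, 36.5 and 39.2 FPKM in aged libraries, against 60.8, 58.7 and 59.9 FPKM in young libraries. All young libraries stood far above all aged ones. It was 1.61-fold lower, at 37.1 ± 1.89 FPKM in aged and 59.8 ± 1.02 FPKM in young libraries. Among the members it had the smallest adjusted p (log2 fold change -0.68 ± 0.04 SE, limma adjusted p = 2.80e-05), and it kept the call without young replicates 1 and 3 (-0.65, adjusted p = 0.00357).

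Hspg2, the gene of perlecan, has 97 exons in its largest coding transcript (ENSMUSG00000028763, chromosome 4, 137468769 to 137570630, plus strand). It had 58.0, 56.7 and 66.4 FPKM in aged libraries, against 72.8, 73.5 and 74.1 FPKM in young libraries. The young libraries lay close together and the aged ones spread more, with aged replicate 3 nearest to them. The mean was 1.22-fold lower (log2 fold change -0.28 ± 0.06 SE, limma adjusted p = 0.00610). Without young replicates 1 and 3 the fold change was the same at -0.28, with adjusted p = 0.0802.

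Both nidogens were sparse beside their partner chain. Nid1 (ENSMUSG00000005397, chromosome 13, 13437551 to 13512269, plus strand) had 29, 18 and 28 reads in aged libraries, against 32, 23 and 19 reads in young libraries. The libraries of both groups were intermixed, at 0.210 ± 0.0498 FPKM in aged and 0.206 ± 0.0561 FPKM in young libraries. The ratio of summed reads was 1.02 with a counting interval of 0.732 to 1.43 (voom adjusted p = 0.971), and 1.10 (0.683 to 1.84) without young replicates 1 and 3. Nid2 (ENSMUSG00000021806, chromosome 14, 19751265 to 19811787, plus strand) had 8, 9 and 9 reads in aged libraries, against 14, 5 and 2 reads in young libraries. The highest Nid2 count was in young replicate 1, the library with the most kidney transcripts, whose part in it was not tested. The ratio of summed reads was 1.25 (0.676 to 2.34), and 1.76 (0.665 to 5.86) without young replicates 1 and 3. Without young replicate 1 the log2 ratio of mean FPKM was 1.33, against 0.32 with all libraries. The end of Nid2 overlaps Rtraf on the other strand over 437 bases, and Rtraf stood at 47.5 to 54.1 FPKM in aged and 36.1 to 44.5 FPKM in young libraries. Reads shared by such a pair cannot be assigned unless strand was used in counting, which is not stated. Lamc1 exceeded the summed nidogens 107- to 143-fold in aged libraries and 143- to 331-fold in young libraries, in FPKM.

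Balances between the chains of the laminin trimer were compared as ratios within each library. Summed Lamb1 and Lamb2 stood at 2.08, 1.99 and 2.03 times Lamc1 in aged libraries, against 1.41, 1.47 and 1.43 times in young libraries, in FPKM. All aged libraries lay above all young ones, and the log2 ratio was 0.50 higher in aged libraries. The exact 2-sided permutation test over all 20 regroupings gave p = 0.1, the smallest value that 3 against 3 libraries allow, and 0.25 after Benjamini-Hochberg adjustment over 5 balances. Summed alpha chains over Lamc1 were 1.43 ± 0.0310 in aged and 1.38 ± 0.0480 in young libraries, and these groups overlapped (exact permutation p = 0.3, adjusted 0.375). Lamb1 over Lamb2 was 1.27 ± 0.0757 in aged and 1.15 ± 0.0648 in young libraries, also overlapping (exact permutation p = 0.2, adjusted 0.333). The log2 ratio of Nid1 over Nid2 was 1.07 ± 0.45 in aged and 1.79 ± 1.03 in young libraries (exact permutation p = 0.4, adjusted 0.4). The share of Lama5 among alpha chains was 0.23 percentage points lower in aged libraries, without overlap (exact permutation p = 0.1, adjusted 0.25). No balance passed 0.05, which an exact permutation test of 3 against 3 cannot reach. Without young replicates 1 and 3 the differences, aged minus young, were 0.47 for summed beta chains over Lamc1, 0.03 for summed alpha chains over Lamc1, 0.23 for Lamb1 over Lamb2 and -0.70 for Nid1 over Nid2 on the log2 scale, and -0.24 percentage points for the share of Lama5.

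**Figure D3:**
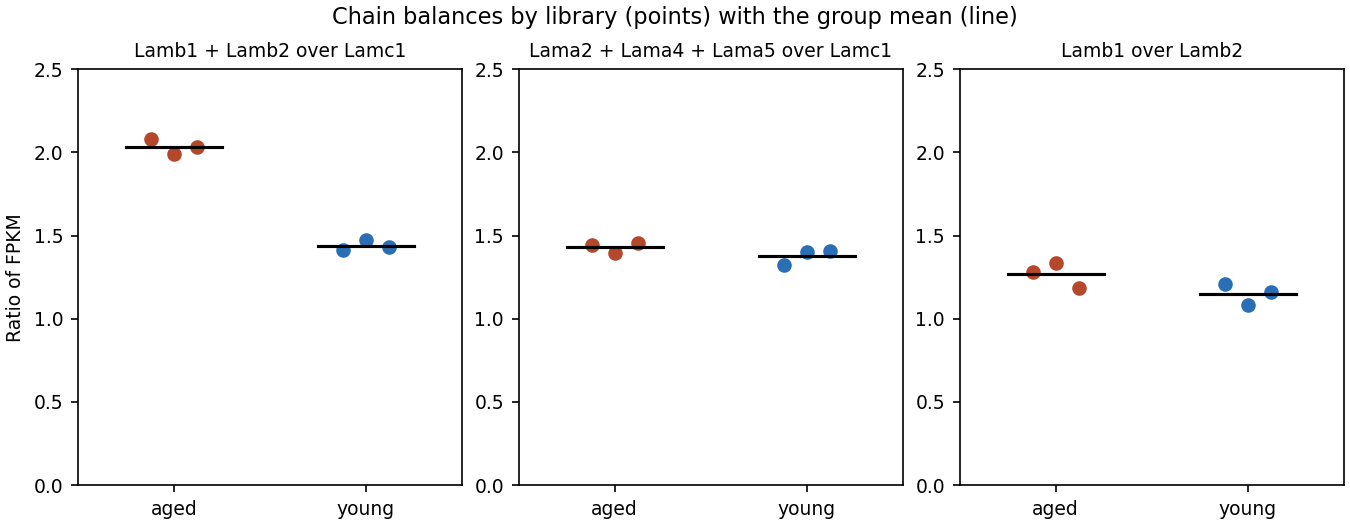
Ratios of FPKM between laminin chains (vertical axis, linear from 0) in 3 aged and 3 young libraries, with points for libraries and lines for group means. Summed beta chains over Lamc1 averaged 2.03 in aged and 1.44 in young libraries, while the other 2 ratios overlap.

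The order of levels differed between the groups. In aged libraries it ran Hspg2, Lama5, Lamb1, Lamc1, Lamb2, then far below Nid1, Lama2, Nid2 and Lama4. In young libraries it ran Lama5, Hspg2, Lamc1, Lamb1, Lamb2, then Nid1, Nid2, Lama2 and Lama4. Lamb1 thus stood above Lamc1 in 3 of 3 aged libraries and below it in 3 of 3 young libraries, with separate ranges in each group. The ranges of Hspg2 and Lama5, of Lamc1 and Lamb2, and of Nid1 and Lama2 overlapped in aged libraries. Only those of Nid2 and Lama2 did so among neighbours in young libraries. These orders compare FPKM, which divides by the gene lengths of the deposited table, 6082 bases for Lamb2 and 16338 bases for Lama2.

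Of 4 other laminin chain genes analysed here, 2 could be tested and both were called higher in aged libraries, where 27.7% of tested genes were. Lamb3, the beta 3 chain of epithelial laminin, had 0.959, 0.99 and 0.704 FPKM in aged libraries, against 0.299, 0.383 and 0.263 FPKM in young libraries. The groups did not overlap, and the log2 fold change was 0.52 ± 0.10 SE (limma adjusted p = 0.00439). Lamc3, the gamma 3 chain, had 0.649, 0.629 and 0.516 FPKM in aged libraries, against 0.0763, 0.0378 and 0.0856 FPKM in young libraries. Its groups stood far apart, with a log2 fold change of 0.58 ± 0.10 SE (limma adjusted p = 0.00195). The log2(FPKM + 1) scale understates both changes, as the mean FPKM was 8.99-fold higher for Lamc3 and 2.81-fold higher for Lamb3. Lamb3 and Lamc3 passed the filter only through the aged libraries, where they are higher, so their count is no support. Without any one aged library both fell below the filter, and 0 of the 4 were called. Lamc3 stayed called without young replicates 1 and 3 (adjusted p = 0.0229 by limma) and Lamb3 did not (0.0705). Lama3, the alpha 3 chain of epithelial laminin, had 58 reads in aged and 25 in young libraries. Lama1, the alpha 1 chain of embryonic basement membranes, had 23 reads in aged and 8 in young libraries. Markers of epithelium, 5 in all, summed to 1.84 to 2.30 FPKM in aged and 0.714 to 1.46 FPKM in young libraries, with Epcam at most 0.228 FPKM. Their part in these levels was not tested.

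**Figure D4:**
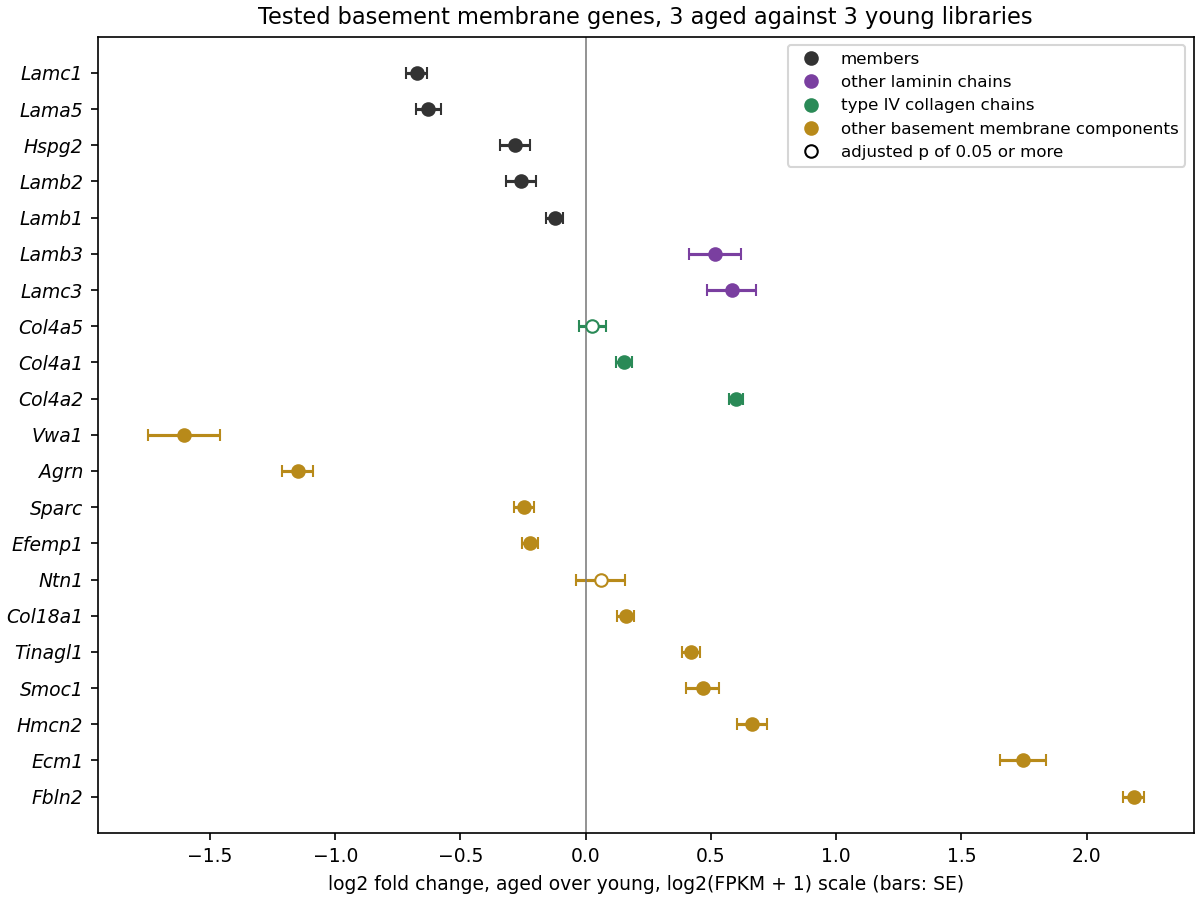
Log2 fold changes (horizontal axis, aged over young, on the log2(FPKM + 1) scale, bars for SE) of the tested genes among the members, other laminin chains, type IV collagen and other basement membrane components, with open points for adjusted p of 0.05 or more. The 5 members lie left of 0, from -0.68 for Lamc1 to -0.12 for Lamb1, and the 2 other laminin chains, Lamb3 and Lamc3, lie right of it.

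Type IV collagen forms the other network of the basement membrane. Of its 6 chains 3 were tested, of which 2 were higher, where 27.7% of all tested genes were, and 1 did not pass the threshold. Col4a2 was 1.52-fold higher, at 124 ± 0.697 FPKM in aged and 81.5 ± 0.460 FPKM in young libraries (limma adjusted p = 8.50e-06). Col4a1, its usual partner, was 1.11-fold higher, at 119 ± 2.09 against 107 ± 2.01 FPKM (adjusted p = 0.00485 by limma). Col4a2 stayed called without young replicates 1 and 3 (adjusted p = 0.00187 by limma) and Col4a1 did not (0.110). Col4a5 stood at 11.1 ± 0.829 FPKM in aged and 10.8 ± 0.245 FPKM in young libraries.

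Among 24 other basement membrane components, 11 were tested, 6 of them higher and 4 lower, leaving 1 uncalled, and their median log2 fold change was 0.16. Over all tested genes 27.7% were higher and 32.3% lower. The lower count includes a gene with at most 0.128 FPKM in aged and at least 1.81 FPKM in young libraries. It passed the filter only through the young libraries, where it is higher, so its call is no support. Agrn (agrin), a heparan sulfate proteoglycan that binds laminins, fell with perlecan, at 13.8 ± 1.17 FPKM in aged and 31.9 ± 1.10 FPKM in young libraries (limma adjusted p = 1.53e-05). Fbln2 (fibulin-2), which binds laminins and nidogen, was 4.60-fold higher, at 326 ± 7.29 FPKM in aged and 70.8 ± 3.11 FPKM in young libraries. Ecm1, a secreted protein that binds perlecan, was 3.42-fold higher, and Tinagl1 was 1.34-fold higher. Of 18 receptors and their partners, 14 were tested, with 6 higher and 5 lower against the same shares. Dag1 (dystroglycan), the laminin and perlecan receptor, was 1.44-fold lower, at 40.8 ± 2.82 FPKM in aged and 58.6 ± 1.23 FPKM in young libraries (limma adjusted p = 0.000197). Sgcb, a sarcoglycan of the dystroglycan complex, was 1.32-fold lower and Sdc3, a heparan sulfate carrying syndecan, 1.64-fold lower. Itgb4, the integrin subunit that anchors epithelial cells to laminin, was 5.71-fold higher, at 5.84 ± 0.271 FPKM in aged and 1.02 ± 0.128 FPKM in young libraries. Without young replicates 1 and 3, the 8 genes named in this paragraph kept their direction and an adjusted p under 0.05 by limma.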

How the data were processed

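Per the labels' protocols, RNA was extracted with TRIzol, sequenced on an Illumina NovaSeq instrument and aligned with HISAT2 2.0.5. The submitters' processing notes name mm10 as the build. The counting program, annotation and strand setting were not given in the sources used here. The authors deposited 1 table of FPKM values with gene lengths. FPKM times length was a whole multiple of a single step per library for 100% of values above 0 (tolerance 0.01), which gave the reads. The library size implied by that step was above the recovered total in aged libraries (17194677 against 16887256 in replicate 1). In young libraries it was below the total (17219401 against 17266815 in replicate 1). FPKM thus stood slightly lower in aged and slightly higher in young libraries than scaling to the totals would give. Counting intervals are exact at 95% and cover counting error only. Replicates of a group were not within sampling noise of each other (chi-square per degree of freedom of 2.25 to 4.93). Between groups it was 76.8 to 81.6. All 6 were kept as separate samples, but these values cannot show whether they came from separate mice.

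Values were tested as log2(FPKM + 1) for genes with at least 0.5 FPKM in at least 3 libraries, with limma 3.58.1 in R 4.3.3 (mean-variance trend, 2-sided, Benjamini-Hochberg over all tested genes, threshold 0.05). This scale understates changes of low genes, and printed folds are ratios of mean FPKM. Balances were compared by exact permutation with Python 3.11.15 and scipy 1.17.1. Alternatives were other pseudocounts, filters, scalings and moderation, voom on recovered reads, a replicate block and leaving out libraries. Leaving out both young libraries with kidney transcripts, voom at 10 reads or more, and the alternatives for members below the filter were chosen after seeing the data. The fit was tested on simulated reads. The members and lists were chosen with earlier results of these data known. Named genes were all 9 members, other laminin chains and the tested type IV collagen chains, and up to 4 genes per list with the smallest p among called genes averaging 1 FPKM or more. Of the listed symbols, 2 were matched through a synonym. Marker genes and Rtraf are named outside that rule, after their values were seen. Some genes of these lists are not reported here.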

Additional observations from a re-analysis of the deposited data

How the results depend on the processing

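Over 19 alternatives, the log2 fold changes of all 5 tested members stayed negative, from -0.68 to -0.56 for Lama5 and from -0.72 to -0.61 for Lamc1, and both kept adjusted p under 0.05 in all of them. Lamb1 kept it in 14, and Lamb2 and Hspg2 in 18. Lamb1 lost it with median centring (-0.059), in TPM (-0.10), and without aged replicate 1 or 2 (range on leaving out a library -0.14 to -0.11). Without both young libraries with kidney transcripts, Lamb1 (-0.091), Lamb2 (-0.31) and Hspg2 (-0.28) lost it. That fit has 4 libraries in place of 6, with a single young library. Other laminin chains had 0 calls with a mean FPKM of at least 1, which removes both tested genes, and 0 to 2 on leaving out a library, since both fall below the filter without an aged one. Voom at 10 reads or more called 5 type IV collagen chains, where 49.9% of all genes in that fit were called. Of the 6 chains, 3 lay below the FPKM filter. Among genes below that filter with at least 10 reads, voom called 20.7% higher and 4.89% lower. At a threshold of 0.01, 6 dystroglycan glycosylation genes were called. Whether same-numbered libraries of the groups share more than a number is not stated. Their deviations correlated at 0.00562, -0.00793 and 0.0192, which cannot exclude a shared preparation. With the replicate number as a block, 8441 genes were called in place of 9115, 5 members stayed called, and 6 dystroglycan glycosylation genes were called in place of 10; the cause was not tested. Depth limits Lama4 and Nid2, at 1 to 14 reads per library.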

Other observations

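Genes that build, modify, cut or export these proteins changed in both directions, and over all tested genes 32.3% were lower and 27.7% higher. Of 19 genes of the secretory pathway for large matrix proteins, 12 were lower in aged libraries and 3 higher by limma, with a median log2 fold change of -0.27 against -0.03 over all tested genes. Sec23a and Sec24d, coat proteins of vesicles that leave the endoplasmic reticulum, were 1.62-fold and 1.65-fold lower. Creb3l2, a transcription factor that drives secretory genes, stood at 8.61 ± 0.252 FPKM in aged and 14.9 ± 0.183 FPKM in young libraries. Serpinh1, the collagen chaperone, was 1.48-fold lower, at 330.5 ± 3.82 FPKM in aged and 491 ± 12.9 FPKM in young libraries.

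Of 15 tested enzymes of heparan sulfate synthesis, which build the chains of perlecan, 7 were lower and 4 higher, against the same 32.3% and 27.7% of all tested genes. Xylt2, which starts the chain, was 2.15-fold lower, and Ext2, a subunit of the chain polymerase, was 1.83-fold lower. Hs6st1, a sulfotransferase, was 1.49-fold lower, while B4galt7, which adds the next linker sugar, was 1.84-fold higher. Of 13 tested enzymes of dystroglycan glycosylation, which make the sugar that laminins bind, 6 were lower and 4 higher. B4gat1 was 1.69-fold, Pomgnt2 1.78-fold and Pomt1 1.33-fold lower, while Dpm2 was 1.63-fold higher. Of 11 tested enzymes that cut basement membrane proteins, 5 were lower and 4 higher. Hpse (heparanase), which cleaves heparan sulfate, was 1.96-fold lower, at 15.4 ± 0.744 FPKM in aged and 30.2 ± 0.790 FPKM in young libraries. Plau (urokinase) was 2.17-fold higher, and the cathepsins Ctsb and Ctsl were 1.43-fold and 1.47-fold higher. Without the young libraries with kidney transcripts, 26 of the 28 called genes named from all lists beside the members kept their call, and 28 kept their direction; Lamb3 and Col4a1 lost the call.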
